A study of Mus musculus with 27 samples.

Results

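The clustered protocadherins are cell-surface adhesion proteins of neurons, encoded by the alpha, beta and gamma gene clusters that lie side by side on 1 mouse chromosome. They were followed here in ribosome-bound RNA of striatal neurons with and without the histone methyltransferase G9a (gene symbol Ehmt2). Members were all probe sets of the array whose annotated symbol, or any of several symbols, belongs to the alpha, beta or gamma cluster. A probe set is a group of short probes on the array that reads 1 transcript or a few related ones. The rule found 35 of the 45037 probe sets that are not array controls: 6 for alpha, 28 for beta and 1 for gamma.

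The 27 arrays came from striata of male mice (2 to 5 months old) of a mixed C57BL/6 and 129/Sv background. In all mice both G9a alleles were floxed (G9a fl/fl), and all carried a GFP-tagged ribosomal protein (TRAP, L10a-GFP) in Drd1 or Drd2 neurons, most of which are projection neurons; Drd2 is also active in cholinergic interneurons. D1 controls were Drd1-TRAP; G9a fl/fl mice (2 saline, 4 cocaine) and D1 mutants were Drd1-TRAP; Drd1-Cre; G9a fl/fl mice (3 saline, 4 cocaine). D2 controls were Drd2-TRAP; G9a fl/fl mice and D2 mutants are labelled Drd-TRAP; Drd2-Cre; G9a fl/fl, each with 3 saline and 4 cocaine arrays. That label does not say which TRAP line the D2 mutants carried, and the mean of 4 D2 neuron markers lay between 12.21 and 12.43 in them, between 12.05 and 12.52 in D2 controls and between 8.08 and 8.60 in the D1 arrays. Every mouse had received 8 injections, of saline or of cocaine at 20 mg/kg/day, and was taken 2 h after the last. Controls carried no Cre, so the loss of G9a and the presence of the Cre transgene cannot be told apart.

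Each cluster is a row of similar genes, and a neuron transcribes a small, varying choice of them. In the alpha and gamma clusters each variable first exon is spliced to exons shared by the whole cluster, whereas each beta gene is a single complete exon. Their proteins bind the same isoforms on other membranes, and this recognition is known for letting branches of 1 neuron avoid each other. CTCF and cohesin bring distant enhancers to the chosen promoters, while DNA methylation and histone H3 lysine 9 methylation keep the others silent. G9a, with its partner GLP (Ehmt1), is the main enzyme for mono- and dimethylation of that lysine in euchromatin.

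The target was checked first. Ehmt2 lay between 9.95 and 10.74 (median 10.46) on the log2 scale in the 6 D1 controls and between 8.03 and 9.37 (median 8.72) in the 7 D1 mutants. In D2 neurons it lay between 10.67 and 11.01 (median 10.76) in the 7 controls and between 8.68 and 9.38 (median 8.96) in the 7 mutants. The ranges did not overlap in either neuron type, and the log2 differences were -1.79 ± 0.13 (SE, adjusted p = 3.66e-10, limma) and -1.82 ± 0.12 (adjusted p = 3.04e-11). For replicate 4 of the D2 mutants on cocaine, labelled a mutant in its title and genotype, the source name says control. It is counted among the 7 D2 mutants, all of which lay at or below 9.38 for Ehmt2, while the lowest D2 control read 10.67. All 8 D1 neuron markers were higher, and all 4 measured D2 neuron markers lower, in D1 than in D2 controls. Array medians lay between 5.69 and 5.81, and 3 arrays had a high level of Ttr, a choroid plexus gene. The mice are the replicates, and the number of arrays limits the precision.

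The members differed widely in signal. The 3 probe sets listed for all 14 alpha genes had means over all arrays of 9.82 (1420798_s_at), 8.99 (1424341_s_at) and 8.20 (1451769_s_at). The 3 listed for 9 alpha genes were dimmer, with means of 6.19, 6.03 and 4.65. All 22 beta genes had a probe set of their own, and Pcdhb20 (9.22), Pcdhb9 (9.13) and Pcdhb17 (8.42) were the brightest of the 28. The dimmest beta probe set was one of the pair for Pcdhb14, at 3.35. Of the beta probe sets 11 had a mean above 6, a level that 20909 of all probe sets exceeded. Of the 22 gamma genes in the reference gene table only Pcdhgc4, a C-type isoform, was represented, with a mean of 3.87 that ranged from 3.56 to 4.12. Signals of different probe sets depend on their probes, so these levels do not rank the genes by RNA amount. Probe sets whose name ends in _s_at or _x_at can also read related transcripts, and sequence similarity among beta genes leaves their assignment uncertain.

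In control mice, D2 neurons had more RNA of several beta genes than D1 neurons. No member was higher in D1 and 6 of 35 were lower, against 4.98% of all probe sets higher and 6.96% lower. Among the 11 beta probe sets with a mean above 6, all 11 differences were below 0 and 4 passed the test; 13.2% of all probe sets at that level were called lower. The median difference was -0.09 over the members and -0.01 over all probe sets. In RNA pulled from a tissue, fewer tagged cells of a type and less RNA per cell cannot be told apart. The adjusted p-values here and below are from limma with Benjamini-Hochberg adjustment over all 45037 probe sets, and a member is said to have risen or fallen when this value is under 0.05.

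Pcdhb9 had the largest difference. Its level lay between 7.95 and 8.79 (median 8.45) in the 6 D1 controls and between 8.96 and 9.64 (median 9.48) in the 7 D2 controls. Every D1 array lay below every D2 array. The log2 difference, D1 minus D2, was -1.01 ± 0.12 (SE, adjusted p = 1.07e-06), and this call was kept when any 1 array was left out. Such a complete separation was seen for 2 members, Pcdhb9 and 1 dim Pcdhb4 probe set (1440632_at), and for 2.09% of all probe sets.

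Pcdhb12 lay between 7.01 and 7.36 (median 7.10) in D1 controls and between 7.23 and 7.86 (median 7.52) in D2 controls, so the ranges overlapped. The log2 difference was -0.40 ± 0.10 (adjusted p = 0.00456), and it fell short of the threshold without D1 control saline replicate 1 (-0.32, adjusted p = 0.0746). Pcdhb17 lay between 7.23 and 8.28 (median 8.09) in D1 and between 8.26 and 8.89 (median 8.48) in D2 controls. Its log2 difference of -0.49 ± 0.13 (adjusted p = 0.0138) was lost without either of the D1 control saline arrays (adjusted p = 0.0654 and 0.0541). The dim Pcdhb4 probe set read 3.33 to 3.55 (median 3.41) in D1 and 3.57 to 4.05 (median 3.66) in D2 controls, a log2 difference of -0.31 ± 0.08 (adjusted p = 0.0128). The call was lost on leaving out D2 control saline replicate 3 (adjusted p = 0.0511) and on leaving out D1 control saline replicate 2 (adjusted p = 0.0796).

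The alpha probe set 1424341_s_at, listed for all 14 alpha genes, differed by -0.46 ± 0.14 (adjusted p = 0.025). It read 8.95, 8.95, 8.83, 8.81, 7.88 and 8.58 in the 6 D1 controls, so 1 array, cocaine replicate 3, lay lowest. That array is one of the 3 with a high Ttr level. The call was lost without any 1 of 5 control arrays, with adjusted p-values from 0.0516 to 0.0975. The other probe sets for all alpha genes did not pass: 1420798_s_at differed by -0.26 (95% interval -0.44 to -0.07) and 1451769_s_at by 0.12 (-0.21 to 0.45). Pcdhb7 was close to the threshold at -0.44 ± 0.15 (adjusted p = 0.0471), a call that was lost without any 1 of 16 arrays. Without D1 control saline replicate 1, or without replicate 2, only 2 members were lower. Of 5 cholinergic interneuron markers 3 were lower in D1 controls (Lhx8, Slc18a3 and Slc5a7), and the means of the list did not overlap (4.85 to 5.00 in D1 and 5.46 to 5.98 in D2). Of 6 microglia markers 2 were lower (Cx3cr1 and C1qa, with the mean of the list at 5.31 to 5.68 in D1 and 5.35 to 5.77 in D2). Among 7 markers of projection neurons of both types, Ppp1r1b (-0.405, adjusted p = 0.000775) and Ptpn5 (-0.52, adjusted p = 4.4e-05) were lower. The differences over that list lay between -0.52 and -0.05. Its mean was 12.15 to 12.41 in D1 and 12.3 to 12.61 in D2 controls. In the other direction, 4 of 4 cortical excitatory markers were higher in D1 controls, with the mean of the list at 4.52 to 6.91 in D1 and 4.15 to 4.59 in D2 controls. So were 4 of 8 astrocyte markers (6.88 to 7.59 against 6.46 to 6.97) and 3 of 6 GABAergic interneuron markers (7.06 to 7.42 against 6.88 to 7.10). Their part in the member differences was not tested. Oligodendrocyte markers were also lower in D1 controls (3 of 7 called; mean of the list 6.27 to 6.91 in D1 and 6.31 to 7.28 in D2). With the mean of that list as a covariate, chosen after the data were seen, 3 members were lower, and Pcdhb9 was at -0.97 (adjusted p = 9.4e-05).

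**Figure D1:**
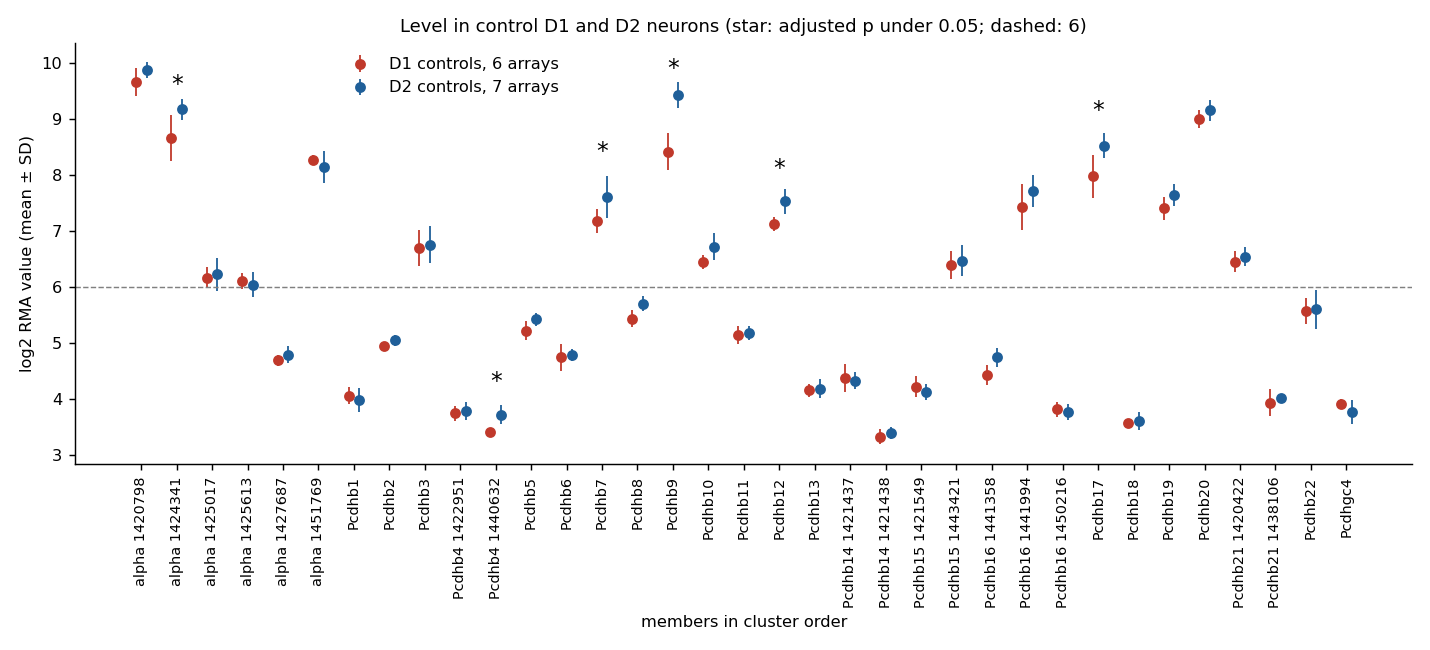
Mean log2 RMA value (± SD) of the 35 members in cluster order, in the 6 D1 control arrays (red) and the 7 D2 control arrays (blue); the dashed line is at 6 and stars mark an adjusted p under 0.05. Pcdhb9 shows the widest gap, with D1 controls between 7.95 and 8.79 and D2 controls between 8.96 and 9.64.

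Loss of G9a in D1 neurons was accompanied by higher RNA of a group of beta genes. Of 35 members 8 rose and none fell, against 1.23% of all probe sets higher and 0.391% lower. All 8 were beta probe sets, from 7 genes: Pcdhb9, Pcdhb12, Pcdhb15, Pcdhb16, Pcdhb20, Pcdhb21 and Pcdhb22. Their log2 changes lay between 0.46 and 0.86. Among the 11 beta probe sets with a mean above 6, all 11 changes were above 0, with a median of 0.46, and 6 passed; 1.74% of all probe sets at that level were called higher. The median over all 28 beta probe sets was 0.25, and over all probe sets -0.01.

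Pcdhb21 had the smallest p and is read by 2 probe sets. The brighter (1420422_at) lay between 6.24 and 6.73 (median 6.46) in the 6 D1 controls and between 7.0 and 7.48 (median 7.27) in the 7 D1 mutants. The dimmer (1438106_at) lay between 3.61 and 4.26 (median 3.94) in controls and between 4.43 and 5.17 (median 4.80) in mutants. Neither pair of ranges overlapped. The log2 changes were 0.83 ± 0.11 (SE, 1.78-fold, adjusted p = 7.76e-06) and 0.86 ± 0.11 (1.82-fold, adjusted p = 1.37e-05).

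Pcdhb15, read by 1443421_s_at, lay between 5.94 and 6.71 (median 6.44) in D1 controls and between 6.97 and 7.61 (median 7.16) in D1 mutants, again without overlap. It rose by 0.81 ± 0.12 on the log2 scale (adjusted p = 7.48e-05). Its other probe set (1421549_at) is dim in controls, at a median of 4.24, and changed by 0.20 (95% interval 0.004 to 0.399), which did not pass (adjusted p = 0.541). Pcdhb16, read by 1441994_at, lay between 6.99 and 8.09 (median 7.24) in D1 controls and between 8.13 and 8.34 (median 8.24) in D1 mutants. The highest control array, cocaine replicate 4, came within 0.04 of the lowest mutant array. The change was 0.80 ± 0.14 (adjusted p = 0.000839). The other Pcdhb16 probe sets did not pass in D1 neurons. They are dimmer and changed by 0.34 (1441358_at, adjusted p = 0.0876) and 0.075 (1450216_at, 95% interval -0.081 to 0.232, adjusted p = 0.873).

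Pcdhb22, the last gene of the beta cluster, lay between 5.14 and 5.79 (median 5.57) in D1 controls and between 6.05 and 6.50 (median 6.40) in D1 mutants, without overlap. It rose by 0.76 ± 0.14 (adjusted p = 0.0014). Pcdhb12 lay between 7.01 and 7.36 (median 7.10) in controls and between 7.47 and 7.99 (median 7.65) in mutants, also without overlap, a rise of 0.59 ± 0.10 (adjusted p = 0.000258). Pcdhb20, the brightest beta gene, overlapped: 5 of 7 mutant arrays lay above the highest control array. It lay between 8.88 and 9.32 (median 8.96) in controls and between 9.31 and 9.62 (median 9.42) in mutants, a rise of 0.46 ± 0.09 (adjusted p = 0.00145).

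Pcdhb9 lay between 7.95 and 8.79 (median 8.45) in D1 controls and between 8.89 and 9.33 (median 9.03) in D1 mutants. The ranges did not overlap, and the rise was 0.64 ± 0.12 (adjusted p = 0.00169). Without D1 control saline replicate 1 the change was 0.48 and did not pass (adjusted p = 0.0854). In all, 7 members had every mutant array above every control array, as did 0.879% of all probe sets. Just short of the threshold were Pcdhb16 by its second probe set (1441358_at, 0.34, adjusted p = 0.0876), Pcdhb19 (0.35, adjusted p = 0.101) and Pcdhb17 (0.44, adjusted p = 0.12). Without D1 mutant saline replicate 3, the array with the highest Ttr, 1441358_at (0.44, adjusted p = 0.00576) and Pcdhb17 (0.53, adjusted p = 0.0316) passed as well.

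No alpha or gamma probe set passed with G9a loss in D1 neurons. With both drugs weighted equally, none of the 6 alpha probe sets was called or had an unadjusted p under 0.05 in limma. Their changes lay between -0.18 and 0.16. The 3 probe sets that read all alpha genes changed by 0.07 (1420798_s_at, 95% interval -0.11 to 0.25), 0.16 (1424341_s_at, -0.12 to 0.44) and 0.01 (1451769_s_at, -0.32 to 0.33). Pcdhgc4 changed by -0.01 (-0.16 to 0.13), but its signal is near the bottom of the scale in every array. No alpha gene had a probe set of its own, so a change in single alpha genes could go unseen here. The other gamma genes were not measured.

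The same genes were measured in D2 neurons with an independent set of arrays. Of 35 members 8 rose and none fell, against 3.27% of all probe sets higher and 1.37% lower. All 8 were beta probe sets, from 5 genes: Pcdhb3, Pcdhb15, Pcdhb16, Pcdhb21 and Pcdhb22. Among the 11 beta probe sets with a mean above 6, all 11 changes were above 0, with a median of 0.18, and 4 passed; 5.22% of all probe sets at that level were called higher. Of the 8 members that rose in each neuron type 5 were the same, and 4 genes were called in both: Pcdhb15, Pcdhb16, Pcdhb21 and Pcdhb22. The share of all probe sets called in both types was not counted, so this overlap cannot be called particular to the members.

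Pcdhb15 changed most. Probe set 1443421_s_at lay between 6.13 and 6.96 (median 6.36) in the 7 D2 controls and between 7.52 and 8.02 (median 7.77) in the 7 D2 mutants. The rise was 1.28 ± 0.11 (SE, 2.43-fold, adjusted p = 5.47e-09). Its second probe set, 1421549_at, lay between 3.92 and 4.30 (median 4.15) in controls and between 4.45 and 4.97 (median 4.72) in mutants, and rose by 0.54 ± 0.09 (adjusted p = 0.000257). Neither probe set had overlapping ranges.

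Both Pcdhb21 probe sets rose without overlap. The brighter went from 6.24 to 6.78 (median 6.54) in D2 controls to 7.20 to 7.73 (median 7.55) in D2 mutants, a log2 change of 0.95 ± 0.10 (adjusted p = 1.56e-07). The dimmer went from 3.94 to 4.07 (median 4.00) in controls to 4.33 to 5.03 (median 4.61) in mutants, a change of 0.68 ± 0.11 (adjusted p = 0.000101). Pcdhb22 lay between 5.01 and 5.96 (median 5.62) in controls and between 6.08 and 6.77 (median 6.22) in mutants, also apart, and rose by 0.76 ± 0.13 (adjusted p = 0.000435).

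Pcdhb16 rose by 2 of its 3 probe sets. The bright one (1441994_at) lay between 7.45 and 8.22 (median 7.60) in D2 controls and between 8.05 and 8.88 (median 8.44) in D2 mutants. These ranges overlapped in 1 mutant array, and the change was 0.81 ± 0.13 (adjusted p = 0.000178). The second (1441358_at) lay between 4.48 and 4.91 (median 4.83) in controls and between 5.03 and 5.47 (median 5.28) in mutants, a rise of 0.52 ± 0.09 (adjusted p = 0.000544). The third (1450216_at), at a mean of 3.80, changed by 0.02 (95% interval -0.12 to 0.17).

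Pcdhb3, near the start of the beta cluster, lay between 6.26 and 7.34 (median 6.72) in D2 controls and between 7.09 and 7.68 (median 7.31) in D2 mutants. The ranges overlapped, and it rose by 0.58 ± 0.13 (adjusted p = 0.00783). With D2 mutant cocaine replicate 4 counted as a control, as its source name has it, the change was 0.51 and missed the threshold (adjusted p = 0.0574). In all, 6 members had every D2 mutant array above every D2 control array, as did 1.61% of all probe sets. None of the 6 alpha probe sets, each listed for several alpha genes, passed or had an unadjusted p under 0.05 in limma, with changes between -0.19 and 0.12. Pcdhgc4 changed by 0.13 (95% interval -0.004 to 0.262).

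Other cell markers moved with genotype in D2 neurons. Of 7 oligodendrocyte markers 4 rose (Mbp, Mog, Ugt8a and Ermn), and the mean of the list lay between 6.31 and 7.28 in D2 controls and between 7.58 and 7.96 in D2 mutants. It lay between 6.27 and 6.91 in D1 controls and between 6.45 and 7.26 in D1 mutants, where only Ermn passed. With that mean as a covariate, chosen after the data were seen, 3 members rose in D2 neurons and 8 in D1 neurons. The 3 in D2 neurons were Pcdhb15 by 1443421_s_at (1.20, adjusted p = 5.77e-05), Pcdhb21 by 1420422_at (0.92, adjusted p = 0.00044) and Pcdhb16 by 1441994_at (0.84, adjusted p = 0.0251). The other 5 lost their calls, with changes between 0.46 and 0.58 and adjusted p-values from 0.072 to 0.217. Because the covariate did not overlap between the D2 genotypes, this fit can hardly separate it from genotype there. Pcdhb3, for example, changed by 0.582 with and without it, while its adjusted p was 0.208 with it and 0.00783 without.

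Of 8 D1 neuron markers 3 rose in D2 mutants (Drd1, Isl1 and Zfp521), with the mean of the list at 7.12 to 7.59 in D2 controls and 7.62 to 7.85 in D2 mutants, against 9.82 or more in every D1 array. Of 5 cholinergic interneuron markers 2 rose (Slc5a7 and Lhx8), with the mean of the list at 5.46 to 5.98 in D2 controls and 5.85 to 6.30 in D2 mutants. Of the 4 D2 neuron markers, Drd2 fell in D2 mutants by 0.49 on the log2 scale (SE 0.11, adjusted p = 0.00567) and Ptprm rose in both types, by 0.82 in D1 (adjusted p = 1.5e-06) and 0.55 in D2 mutants (adjusted p = 0.000152). In D2 mutants Gja1, 1 of 8 astrocyte markers, rose by 0.62 (adjusted p = 0.0321; mean of the list 6.46 to 6.97 in D2 controls and 6.81 to 7.16 in D2 mutants). Nrn1, 1 of 4 cortical excitatory markers, rose there by 1.44 (adjusted p = 0.00281; 4.15 to 4.59 and 4.48 to 4.89). Th, on the list of GABAergic interneuron markers, and Kl, on that of choroid plexus markers, rose in both neuron types (1 of 6 and 1 of 5 markers). The mean of the GABAergic list lay between 7.06 and 7.42 in D1 controls, 7.24 and 7.69 in D1 mutants, 6.88 and 7.10 in D2 controls and 7.02 and 7.40 in D2 mutants. That of the choroid plexus list lay between 4.83 and 5.71, 5.11 and 6.55, 4.75 and 6.09, and 5.45 and 5.99 in the same order. The part of these other markers in the protocadherin changes was not tested.

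**Figure D2:**
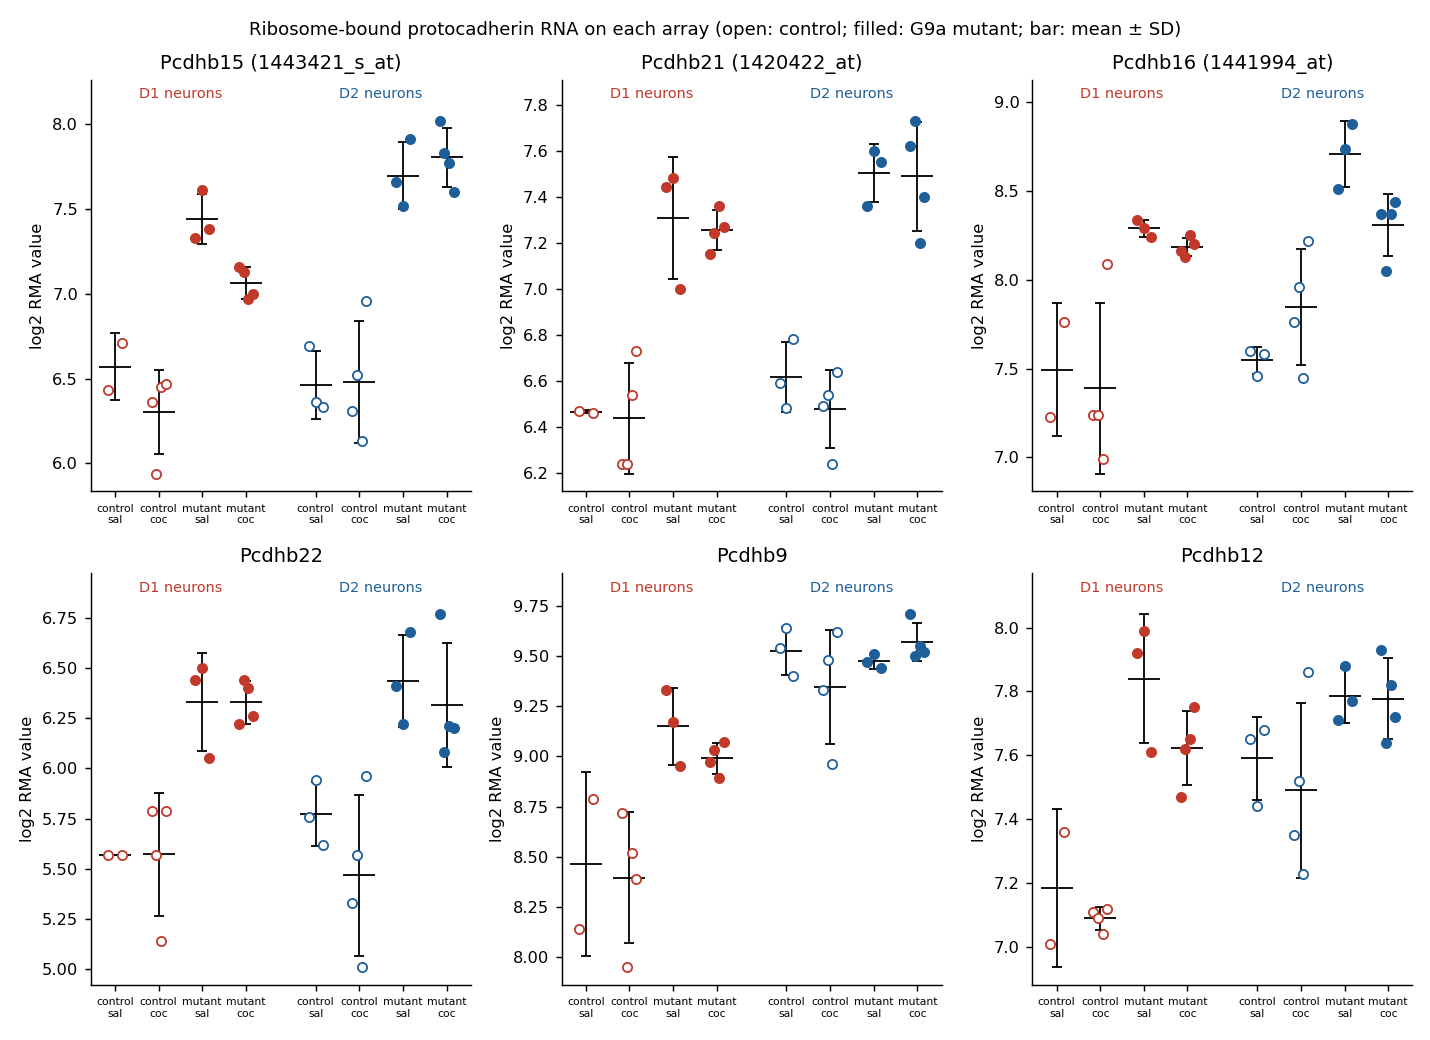
Log2 RMA value on each of the 27 arrays for 6 beta genes, by group (open points control, filled points G9a mutant, red D1 neurons, blue D2 neurons; bars are the mean ± SD; sal is saline, coc cocaine). Pcdhb15, Pcdhb21 and Pcdhb22 are higher in mutants of both neuron types without overlap, whereas Pcdhb9 in D2 neurons is at 8.96 to 9.64 in controls and 9.44 to 9.71 in mutants.

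The D1 and D2 changes were then set side by side. Over the 28 beta probe sets, which come from the same arrays and share sequence, Pearson's r between D1 and D2 changes was 0.82 and Spearman's rho 0.85. Over the 11 with a mean above 6, r was 0.79 and rho 0.45. The same correlation was not computed over all probe sets, so these values have no comparison. The lists of called genes were not identical: Pcdhb9, Pcdhb12 and Pcdhb20 passed in D1 neurons and Pcdhb3 in D2 neurons. The test of the difference itself, D2 change minus D1 change, called no member, against 0.315% of all probe sets, and 6 members had an unadjusted p under 0.05 in limma.

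The largest difference was that of Pcdhb9, whose D2 change was 0.08 (95% interval -0.15 to 0.31). The difference was -0.56 (95% interval -0.89 to -0.22, unadjusted p = 0.00222, adjusted p = 0.226). Without the 3 arrays of high Ttr it was -0.69 and passed (adjusted p = 0.045). Pcdhb15 by 1443421_s_at leaned the other way, with a difference of 0.47 (0.13 to 0.80, adjusted p = 0.384). For Pcdhb20 it was -0.37 (-0.61 to -0.13, adjusted p = 0.286) and for Pcdhb12 -0.35 (-0.62 to -0.08, adjusted p = 0.442). Pcdhb16 by 1441994_at (0.01, -0.38 to 0.41) and Pcdhb22 (-0.01, -0.40 to 0.39) had differences near 0, with intervals that still allow about 0.4 either way.

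The comparison of controls and that of G9a loss in D1 neurons share the 6 D1 control arrays, so their values are given only side by side for the genes called in both. Pcdhb9 had a D1 minus D2 difference of -1.01 and a D1 change of 0.64, and Pcdhb12 had -0.40 and 0.59. Pcdhb9 lay between 8.89 and 9.33 in D1 mutants, between 8.96 and 9.64 in D2 controls and between 9.44 and 9.71 in D2 mutants. The order of its means was 8.42 in D1 controls, 9.06 in D1 mutants, 9.43 in D2 controls and 9.53 in D2 mutants, and the last pair did not differ beyond their spread. Pcdhb21 and Pcdhb15, by contrast, differed between the controls of both types by less than their SD: 6.45 ± 0.19 (SD, n = 6) and 6.54 ± 0.17 (n = 7) for 1420422_at, and 6.39 ± 0.25 and 6.47 ± 0.28 for 1443421_s_at.

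**Figure D3:**
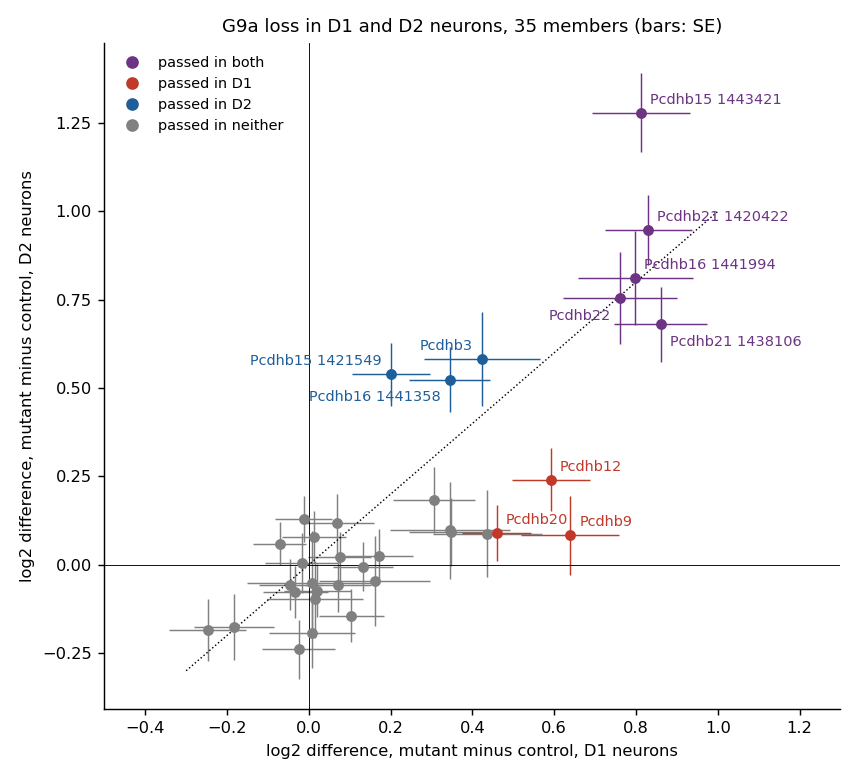
Log2 change with G9a loss in D1 neurons (horizontal) against that in D2 neurons (vertical) for the 35 members, with SE bars; colours mark the neuron type in which the adjusted p was under 0.05 and the dotted line marks equal changes. The 5 probe sets that passed in both lie between 0.76 and 0.86 in D1 and between 0.68 and 1.28 in D2, and Pcdhb9, Pcdhb12 and Pcdhb20 lie below the line.

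By position, most of the genes that rose lay in the later part of the beta cluster. The order was taken from a reference gene table (GRCm38.p6), in which the 22 beta genes run from Pcdhb1, next to the alpha cluster, to Pcdhb22, next to the gamma cluster. Among the first 11 genes 2 rose in either neuron type, Pcdhb3 and Pcdhb9, and among the last 11 there were 6. The later genes were also brighter: 7 of 11 had a mean above 6, against 4 of the first 11. With the brightest probe set per gene, the median D1 change was 0.02 in the first 11 and 0.46 in the last 11, and the median D2 change was 0.01 and 0.09.

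Across the 22 genes, which are not independent replicates, order correlated with the D1 change at r = 0.55 (rho 0.60), with the D2 change at r = 0.41 (rho 0.43) and with the level at r = 0.37 (rho 0.37). Over the 28 beta probe sets, the mean level in controls correlated with the D1 change at r = 0.56 (rho 0.59). With the D2 change it did so at r = 0.20 (rho 0.39). Over the 11 genes with a mean above 6, order and D1 change had r = 0.35 (rho 0.42), and order and D2 change r = 0.17 (rho 0.05). That cut leaves out Pcdhb22, the last gene, which has a mean of 5.98 and rose by 0.76 in both neuron types. Within the late part the rise was not shared by all. Pcdhb13, Pcdhb14 and Pcdhb18 are dim, with mean levels of 4.17, 4.25 and 3.62, and none passed in either neuron type. Pcdhb17 and Pcdhb19 are bright, yet their D2 changes were 0.09 (95% interval -0.17 to 0.34) and 0.09 (-0.10 to 0.29). Pcdhb14 by 1421437_x_at had the lowest D1 change of all members, -0.25 ± 0.09, which did not pass (adjusted p = 0.324).

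**Figure D4:**
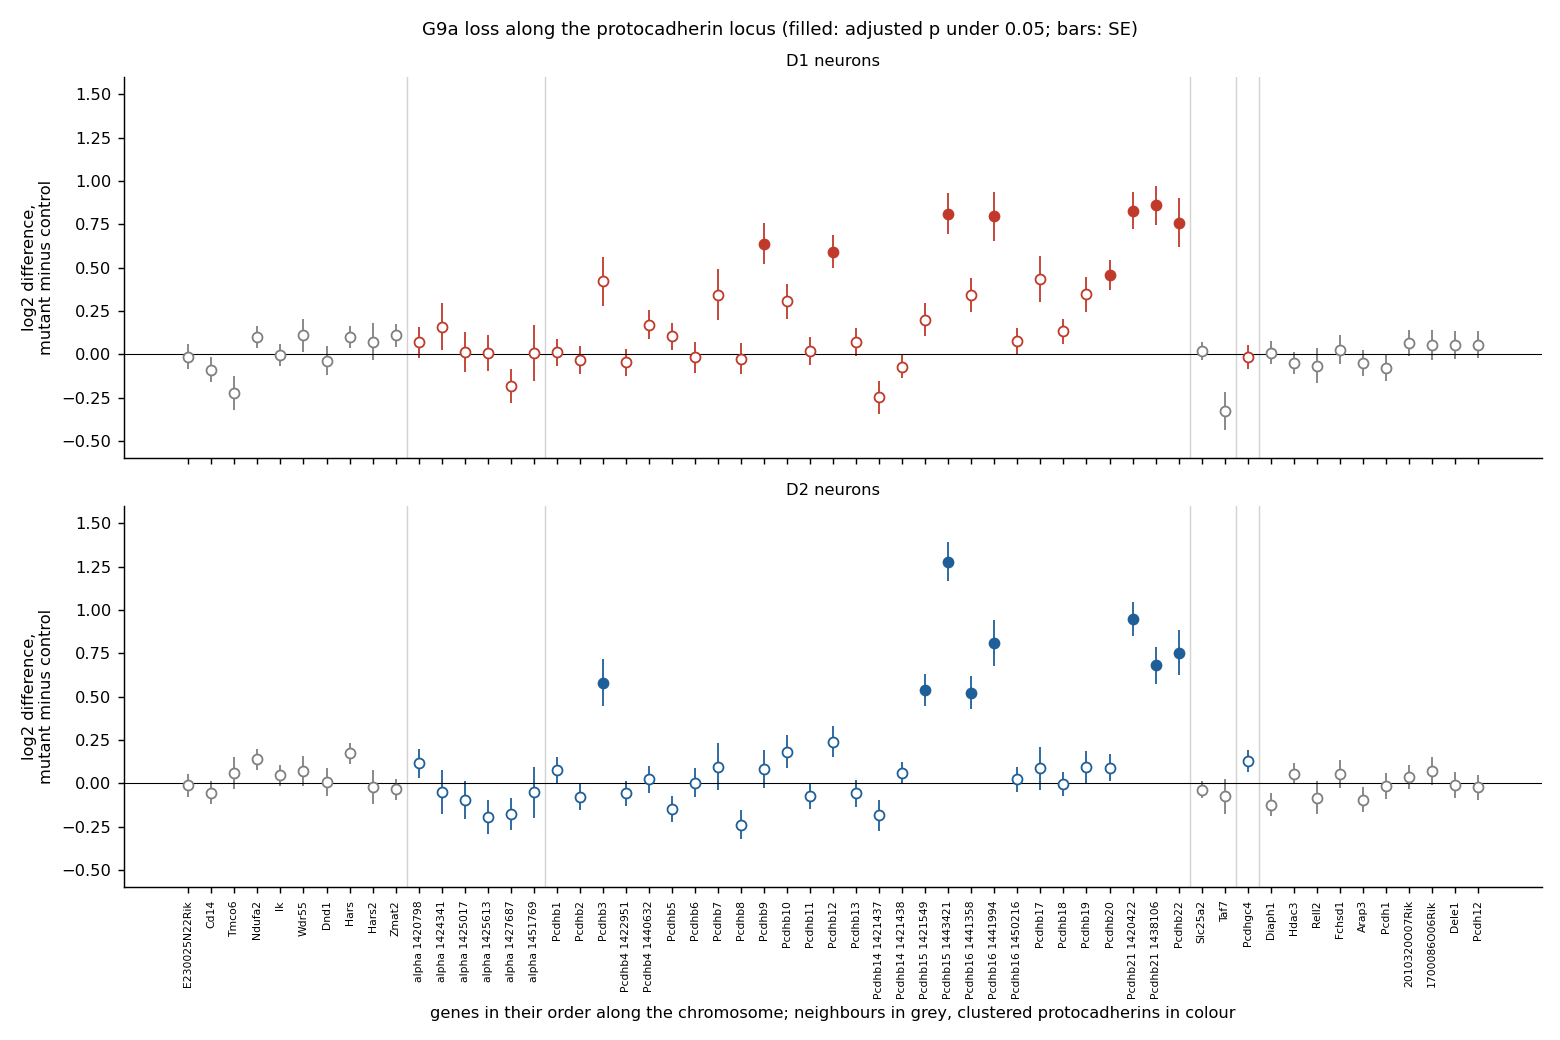
Log2 change with G9a loss (points, with SE bars) in D1 (top) and D2 neurons (bottom) for genes in their order along the chromosome: 10 neighbours, the 6 alpha probe sets, the 28 beta probe sets, the 2 genes between the clusters, Pcdhgc4 and 10 neighbours (neighbours in grey). Filled points have an adjusted p under 0.05, and all of them are beta probe sets. They belong to Pcdhb15, Pcdhb16, Pcdhb21 and Pcdhb22 in both panels, to Pcdhb9, Pcdhb12 and Pcdhb20 in D1 only, and to Pcdhb3 in D2 only.

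The genes around the clusters were not called with G9a loss. Of the 10 nearest genes on the array before the alpha cluster, the 2 between the beta and gamma clusters (Slc25a2, a mitochondrial carrier, and Taf7, a subunit of the general transcription factor TFIID) and the 10 after the gamma cluster, none passed in limma in either neuron type. An unadjusted p under 0.05 was seen for 2 of these 22 genes in D1 neurons and 2 in D2 neurons. Over all probe sets, 1.23% were called higher and 0.391% lower in D1 neurons, and 3.27% and 1.37% in D2 neurons. At those shares a list of 22 genes can easily have no call, so its absence says little about the neighbours. The changes of the 10 genes after the gamma cluster lay between -0.08 and 0.07 in D1 and between -0.12 and 0.07 in D2 neurons. Taf7, beside the end of the beta cluster, changed by -0.33 ± 0.11 in D1 (adjusted p = 0.186) and by -0.08 ± 0.10 in D2 neurons (adjusted p = 0.77). Between controls, however, Ndufa2, Wdr55, Taf7, Diaph1 and Rell2 were called lower in D1 than in D2, with log2 differences from -0.52 to -0.20. Pcdh1 was called higher in D1 controls (0.25), and the rest of these genes did not pass. Over all probe sets 6.96% were called lower and 4.98% higher in that comparison.

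Of 24 known regulators of the clusters 22 were on the array, and none rose. Over all probe sets 1.23% rose in D1 and 3.27% in D2 neurons, shares at which a list this short can easily have none. The shares that fell were 0.391% and 1.37%. Ehmt2 fell in both neuron types, and Cbx5, the gene of the H3K9 methyl reader HP1 alpha, fell in D2 neurons by 0.30 on the log2 scale (SE 0.06, adjusted p = 0.00322). Its D1 change was -0.13 ± 0.07 (adjusted p = 0.62). Atf7ip, a cofactor of the methyltransferase Setdb1, changed by 0.44 ± 0.12 (adjusted p = 0.0678) and 0.36 ± 0.11 (adjusted p = 0.0738). Smc3, a cohesin subunit, changed by -0.05 and 0.24 (adjusted p = 0.947 and 0.144).

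None of 12 measured signalling and processing partners of the protocadherins passed in limma in either neuron type. An unadjusted p under 0.05 was seen for 1 in D1 and 2 in D2 neurons. With 1.23% (D1) and 3.27% (D2) of all probe sets higher, no call among 12 genes says little about them. Nlgn1, a postsynaptic adhesion protein, changed by -0.35 ± 0.11 and -0.23 ± 0.10 (adjusted p = 0.142 and 0.234). Adam10, the protease that sheds protocadherin ectodomains, changed by 0.16 and 0.19 (adjusted p = 0.618 and 0.203).

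Among 12 protocadherins outside the clusters, Pcdh11x rose in both types, by 0.58 ± 0.12 (adjusted p = 0.00795) in D1 and 0.94 ± 0.12 (adjusted p = 2.72e-06) in D2 neurons. Pcdh10 rose in D2 neurons by 0.38 ± 0.09 (adjusted p = 0.0131), with a D1 change of 0.22 (adjusted p = 0.494). Among 21 cadherins, Cdh13, a membrane-anchored cadherin without a cytoplasmic domain, rose by 0.60 ± 0.15 (adjusted p = 0.0421) and 0.74 ± 0.14 (adjusted p = 0.0017). Cdh10 rose in D2 neurons by 0.43 ± 0.10 (adjusted p = 0.0063) and had a D1 change of 0.24 (adjusted p = 0.443). None of either list fell. Over all probe sets 1.23% rose and 0.391% fell in D1 neurons, and 3.27% rose and 1.37% fell in D2 neurons.

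The effect of G9a loss was also estimated within each drug, from different mice. In D1 neurons 5 members rose under saline (0.664% of all probe sets higher) and 9 under cocaine (0.844%). In D2 neurons 5 rose under saline (0.875%) and 5 under cocaine (2.19%). No alpha probe set passed in any of these estimates. The widest alpha change, here called the cocaine value, was that of 1424341_s_at in D1 neurons under cocaine (0.487, 95% interval 0.145 to 0.829, adjusted p = 0.215). Under saline it was -0.165 (-0.606 to 0.276), and the difference of the 2 was 0.652 (0.093 to 1.21, adjusted p = 0.469). Both values use D1 control cocaine replicate 3, a high-Ttr array that read 7.88 against a group median of 8.69. Pcdhb15 by 1443421_s_at and both Pcdhb21 probe sets passed in all 4 estimates. For Pcdhb15 the changes were 0.87 ± 0.19 and 0.76 ± 0.15 in D1 neurons under saline and cocaine, and 1.24 ± 0.17 and 1.32 ± 0.15 in D2 neurons.

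Its arrays read 6.43 and 6.71 in D1 control saline mice and 7.33, 7.61 and 7.38 in D1 mutant saline mice. Under cocaine the D1 controls read 6.36, 5.94, 6.45 and 6.47 and the D1 mutants 7.16, 7.13, 6.97 and 7.0. The D2 controls read 6.69, 6.36 and 6.33 under saline and the D2 mutants 7.66, 7.52 and 7.91. Mutants lay above controls in every one of these sets.

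Pcdhb9 passed within cocaine in D1 neurons (0.59 ± 0.15, adjusted p = 0.0385), and had a change of 0.69 ± 0.19 within saline (adjusted p = 0.106), where only 2 control arrays exist. These read 8.14 and 8.79, against 9.33, 9.17 and 8.95 in the 3 mutants.

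No member passed the test for cocaine. Against saline, limma called 0 of 35 in D1 controls (0.00444% of all probe sets), D1 mutants (0.0289%), D2 controls (0.00888%) and D2 mutants (0%). The number with an unadjusted p under 0.05 was 2, 1, 2 and 2. Tested as an interaction of drug and genotype, 0 members were called in D1 (0%) and in D2 neurons (0%), with 1 and 2 members at an unadjusted p under 0.05. So few calls over the whole array leave little to compare the members with.

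The widest cocaine differences were those of alpha probe set 1424341_s_at (-0.43, 95% interval -0.85 to -0.01, adjusted p = 0.538) and Pcdhb17 (-0.41, -0.81 to 0.003, adjusted p = 0.554), both in D1 controls. Next came Pcdhb16 by 1441994_at in D2 mutants, -0.40 (-0.79 to -0.02, adjusted p = 1), and Pcdhb15 by 1443421_s_at in D1 mutants, -0.37 (-0.70 to -0.05, adjusted p = 0.505). For the alpha probe set, D1 control cocaine replicate 3, an array with a high Ttr level, read 7.88 against a group median of 8.69. In D2 mutants, Pcdhb16 read 8.51, 8.74 and 8.88 under saline and 8.37, 8.05, 8.37 and 8.44 under cocaine. In D2 controls it read 7.60, 7.46 and 7.58 under saline and 7.76, 7.96, 7.45 and 8.22 under cocaine. The difference of these cocaine effects was -0.70 (-1.24 to -0.16, unadjusted p = 0.013, adjusted p = 1). Pcdhgc4 differed by -0.32 in D2 controls (-0.51 to -0.13, adjusted p = 0.421), at a level near the bottom of the scale. The intervals of these members still allow cocaine effects of up to 0.85 on the log2 scale, and over all 35 members the medians lay between -0.04 and -0.01.

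**Figure D5:**
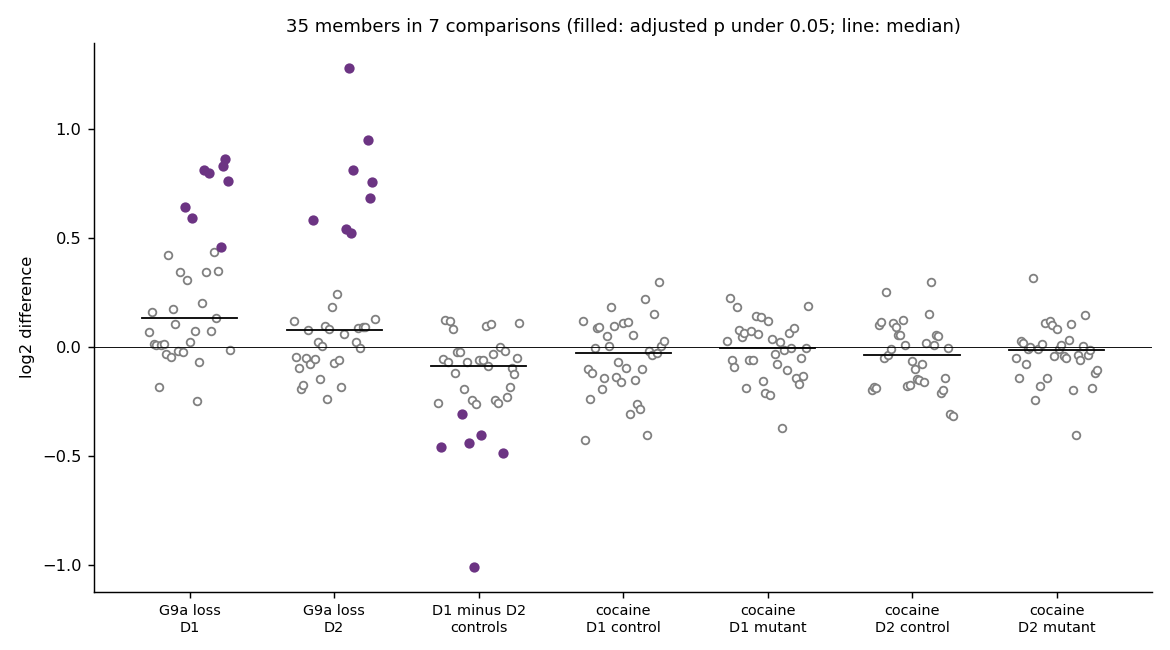
Log2 differences of the 35 members (points; filled with an adjusted p under 0.05) in 7 comparisons, with the median as a line. With G9a loss 8 members rose in each neuron type, 6 were lower in D1 than in D2 controls, and none passed for cocaine.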

How the data were processed

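The values are log2 and were deposited after RMA (background correction, quantile normalization and probe summary). The submitters' processing notes name Affymetrix Expression Console 1.1 for it. The arrays were 1-colour Affymetrix mouse genome arrays. RMA gives no depth or detection call, and cross-hybridising probes are averaged in. Of 45101 probe sets, 64 controls were left out. A 2016 annotation gave exactly 1 symbol to 34945, several to 932 and none to 9160. No 2 arrays were alike (smallest mean absolute difference 0.138).

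All 27 arrays were fitted in limma 3.58.1 (R 4.3.3) with 8 group means, lmFit and eBayes with a trend, no filter, and drugs weighted equally. P-values were adjusted by Benjamini-Hochberg over all 45037 probe sets per contrast, with a threshold of 0.05. The fit was tested on simulated data.

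The members and gene lists were chosen with earlier results of these data known. Values per array are given for Ehmt2, for up to 8 called members of each G9a contrast and up to 4 of the control contrast by smallest p, and for alpha probe sets; up to 4 genes are named per list. Genes on other lists are read by their brightest probe set with 1 symbol. Same-numbered replicates were not treated as pairs in the main fit: r of deviations lay between -0.26 and 0.17 over 13 such pairs. Alternatives were filters, 1 probe set per gene, cyclic loess, median centring, no trend, array weights, a block, covariates, a fold of 1.5 and left-out arrays. Promoter and protein sequences were not used here.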

Additional observations from a re-analysis of the deposited data

Results flagged for a closer look

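One value stood apart from its group. Probe set 1440632_at of Pcdhb4 read 3.82 in D2 mutant cocaine replicate 1, while the other 3 arrays of that group lay between 3.58 and 3.60. This was 1 of 80 sets of 4 arrays examined (20 probe sets in the 4 cocaine groups), and chance alone marks about 1 in 20 such sets. The probe set is dim, with a mean of 3.62 over all arrays.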

How the results depend on the processing

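In D1 neurons the count of members that rose (8) lay between 6 and 12 over the 13 alternatives and between 7 and 10 when 1 array was left out, and none fell. In D2 neurons the count (8) was 5 with probe sets above 6 in at least 3 arrays (17 members tested), 4 with a mean above 6 (16 tested), 5 with 1 probe set per gene, 5 with a fold of at least 1.5 and 3 with the oligodendrocyte covariate, added after the data were seen. It was 8 to 9 when 1 array was left out, and with array weights 1 member fell. The 6 members lower in D1 controls became 10 with array weights, 1 with a fold of at least 1.5, 3 with the oligodendrocyte covariate, and 2 to 8 when 1 array was left out. Without D1 control saline replicate 1 or 2 that group has 1 array, which is assumed to vary like the others. Without the high-Ttr arrays 1 member, Pcdhb9, passed for the D2 minus D1 difference. The replicate block gave 9 and 8 higher members and 7 lower in D1 controls, and changed 1 call of a named member, Pcdhb17 in D1 neurons (0.47, adjusted p = 0.0279). Of 13 same-numbered pairs 5 were correlated over 0.1. This was not set against pairs of different numbers, so it does not settle whether the numbers pair the mice. Of the causes, the fewer members tested under the filters and the 1 probe set per gene follow from the settings. The fold of at least 1.5 was an added cut on the same fit, so its lower counts follow from that cut. For the other settings the cause was not tested. No called change reversed its direction under any of these alternatives, and cocaine called 0 members under each of them. Values at the bottom of the scale, such as Pcdhgc4, have no detection call.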
